A study of Homo sapiens with 22 samples.

Results

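The MAP kinase phosphatases examined here are 10 protein-coding genes of the dual-specificity phosphatase (DUSP) family, DUSP1, DUSP2, DUSP4, DUSP5, DUSP6, DUSP7, DUSP8, DUSP10, DUSP14 and DUSP16, taken by gene symbol from the 20668 symbols of the RNA-seq files. All 10 were listed, and all 10 were among the 12713 genes that passed a filter on low values, which asked for 0.5 RPKM or more in 2 or more samples. The positions given below are those of GENCODE gene models on GRCh37. RPKM is a gene's read count scaled to its transcript length and to all mapped reads of the sample. The RNA came from MDA-MB-231, a triple-negative breast cancer (TNBC) line of mesenchymal appearance, kept for several days in phenol red-free medium with charcoal-stripped serum, which is low in steroids. There were 5 groups of 2 replicates: vehicle, 100 nM dexamethasone (Dex, a synthetic glucocorticoid) for 2 h or 4 h, and 10 μM Compound A (CpdA, a selective modulator of the glucocorticoid receptor, GR) for 2 h or 4 h. All 10 samples came from this single line, and the same 2 vehicle samples served as the reference of all 4 treatments. The labels give the vehicle samples no time, whereas the file headers name vehicle replicate 1 for 2 h and vehicle replicate 2 for 4 h.

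MAP kinase phosphatases remove phosphate from both the threonine and the tyrosine of the activation loop of MAP kinases, and so switch these kinases off. DUSP1, DUSP2, DUSP4 and DUSP5 are nuclear and are made within minutes to hours of stimulation. DUSP6 and DUSP7 are cytoplasmic and prefer the kinase ERK, while DUSP8, DUSP10 and DUSP16 prefer the stress kinases JNK and p38. DUSP14 is a small atypical member without the kinase-binding domain. Several of them, DUSP4, DUSP5 and DUSP6 above all, are transcribed in response to ERK itself and form its negative feedback, while DUSP1 is a known glucocorticoid target through which glucocorticoids restrain p38 and JNK.

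The start of DUSP1 is known for cyclic AMP response elements, which bind CREB and related factors, so the 250 bases before the RefSeq start of each member were searched (GRCh38.p14, 9 windows of 8 members, without DUSP4 and DUSP5). The full element TGACGTCA, found in 1.65% of 35116 such windows, was present in the windows of DUSP1 and DUSP8 and in no other window of a member searched. The shorter motif TGACG, the core of this element, which the full element contains on both strands, was present in the same 2 of 9 windows, against 21.2% of all windows. The windows of these 2 genes are shown because they hold the element, beside that of DUSP6, which holds neither motif. Of the 3 members that rose more than 2-fold at CpdA 2 h, DUSP1 (6.77-fold) and DUSP8 (2.92-fold) had the element and DUSP2 (2.96-fold) had neither motif in its window. The DUSP8 call was lost without CpdA 2 h replicate 1 or 2. At CpdA 4 h the members that rose more than 2-fold were DUSP2 (5.08-fold) and DUSP1 (3.6-fold), and DUSP8 was not called. With Dex, DUSP1 rose 7.71-fold at 2 h and 9.44-fold at 4 h, and DUSP8 was not called. A link between the element and these changes was not tested. Each window shown is read 5′ to 3′ on the reverse strand, ends at the base before the start, and has TGACG and its reverse complement in capitals.
DUSP1, chr5:172771196-172771445: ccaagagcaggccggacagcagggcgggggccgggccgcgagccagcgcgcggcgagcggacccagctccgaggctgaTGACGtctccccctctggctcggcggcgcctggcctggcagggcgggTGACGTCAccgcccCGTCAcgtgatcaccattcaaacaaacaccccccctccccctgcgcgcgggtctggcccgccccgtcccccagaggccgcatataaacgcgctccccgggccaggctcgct
DUSP8, chr11:1572272-1572521: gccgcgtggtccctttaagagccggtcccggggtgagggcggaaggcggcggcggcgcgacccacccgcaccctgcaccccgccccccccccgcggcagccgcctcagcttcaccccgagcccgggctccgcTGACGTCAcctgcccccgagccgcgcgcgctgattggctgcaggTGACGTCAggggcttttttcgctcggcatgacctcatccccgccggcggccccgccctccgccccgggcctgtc
DUSP6, chr12:89352502-89352751: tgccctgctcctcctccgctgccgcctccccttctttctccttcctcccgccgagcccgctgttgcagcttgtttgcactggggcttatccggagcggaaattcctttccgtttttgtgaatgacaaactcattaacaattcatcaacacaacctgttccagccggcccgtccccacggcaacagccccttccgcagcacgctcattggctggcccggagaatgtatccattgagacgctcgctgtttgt

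In DUSP1 the full element began 125 bases before the start, with further copies of the core from 172 and 111 bases before it. In DUSP8 it began 118 and 74 bases before the start. On both strands, none of the 9 windows held the AP-1 site TGANTCA (6.57% of all windows), the palindromic glucocorticoid response element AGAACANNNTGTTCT (1 of 35116 windows), its left arm, AGAACA (12.4%) or the heat shock element GAANNTTC (5.78%). A match or its absence describes only the letters of these windows.

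Depth was available only as a ratio between samples, from the smallest RPKM step of shared low genes. Relative to vehicle replicate 1 it was 1.013 in vehicle replicate 2 and 1.058 to 1.212 in the 8 treated samples, and its part in the results was not tested. As to the identity of the line, VIM (1267 to 1464 RPKM) and CD44 (119.7 to 182 RPKM) were high in all samples. AXL, CAV1, ZEB1 and NR3C1 were detected in every sample (9.96 RPKM or more). Of the receptors that define the subtype by low levels, ESR1 and PGR were at most 0.00484 RPKM and ERBB2 was at 15.9 to 21.6 RPKM. The leukocyte and endothelial markers PTPRC, PECAM1 and CDH5 were at most 0.324 RPKM. Of the luminal markers, CDH1 and FOXA1 were at most 0.465 RPKM, whereas GATA3 (3.75 or more), EPCAM (8.02 to 10.6) and KRT8 (244 to 326 RPKM) were present.

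In vehicle-treated cells, the levels of the 10 transcripts spanned from 0.898 to 79.5 RPKM. DUSP5 was the highest at 79.5 ± 29.6 RPKM (SD, n = 2), followed by DUSP6 at 63.5 ± 8.79, and these neighbours in the order overlapped between their replicates. DUSP14 (49.6 ± 2.06), DUSP4 (44.3 ± 1.77), DUSP7 (23.6 ± 4.13), DUSP10 (16.3 ± 1.06), DUSP1 (13.1 ± 2.07) and DUSP16 (3.43 ± 0.425 RPKM) each lay apart from the next. DUSP8 (1.35 ± 0.776) overlapped with DUSP2 (0.898 ± 0.106). DUSP1 therefore started as the seventh of 10. Its share of the summed RPKM of the 10 genes was 4.27% and 4.57% in the vehicle samples. With Dex it was 28.6% and 29.2% after 2 h and 37.7% and 38.3% after 4 h, and with CpdA 21.6% and 22.1%, then 17.3% and 17.7%. DUSP1 was the most abundant member in all 4 Dex samples (28.6% to 38.3% of the sum), and DUSP5 was the most abundant in the 2 vehicle and 4 CpdA samples (21.5% to 32.3%). The sum itself ranged from 269 RPKM at CpdA 4 h replicate 2 to 410.2 RPKM at CpdA 2 h replicate 1.

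**Figure D1:**
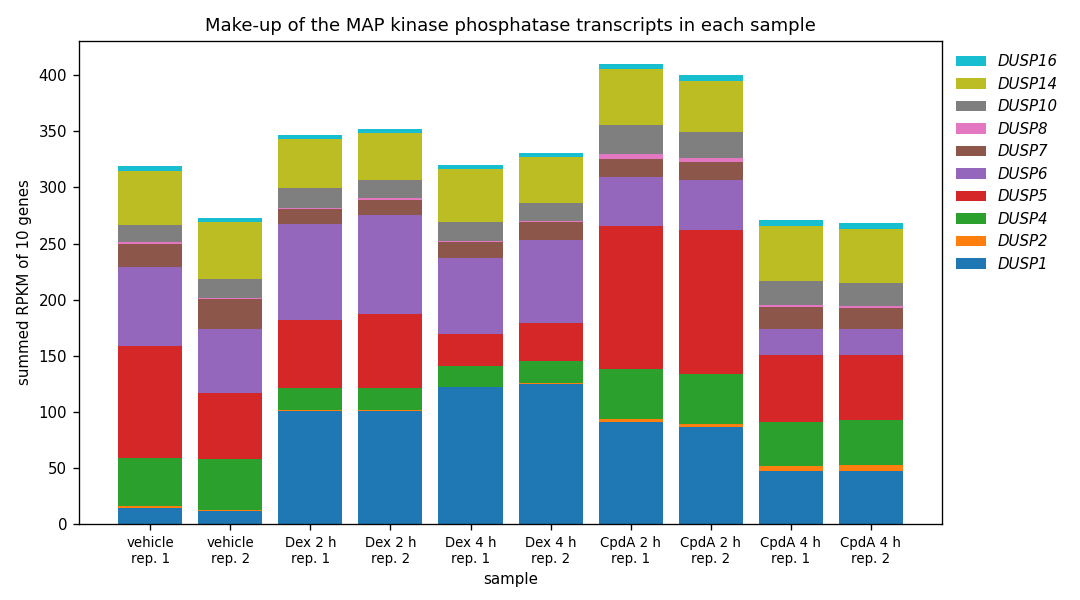
Stacked bars of the RPKM of the 10 MAP kinase phosphatase genes (y axis, summed RPKM) in each of the 10 samples (x axis). The DUSP1 segment was 14.6 and 11.6 RPKM with vehicle and 122 and 125 RPKM at Dex 4 h, and the bars of CpdA 2 h were the highest at 410.2 and 400.3 RPKM.

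Each treatment was compared with vehicle on log2(RPKM + 0.1) in a limma model over all 10 samples, with p-values adjusted over the 12713 genes by the Benjamini-Hochberg method. A gene was called at an adjusted p under 0.05, and all adjusted p-values below come from this model. At Dex 2 h, 2 of 10 members rose (DUSP1 and DUSP6) and 3 fell (DUSP2, DUSP4 and DUSP7), when 10.3% of all genes were called, 4.49% higher and 5.82% lower. After 4 h of Dex, 1 of 10 rose (DUSP1) and 4 fell (DUSP2, DUSP4, DUSP5 and DUSP7), with 27.4% of all genes called, 9.26% higher and 18.2% lower. At CpdA 2 h, 5 of 10 rose (DUSP1, DUSP2, DUSP8, DUSP10 and DUSP16) and 2 fell (DUSP6 and DUSP7), with 6.18% of all genes called, 1.89% higher and 4.29% lower. After 4 h of CpdA, 4 of 10 rose (DUSP1, DUSP2, DUSP10 and DUSP16) and 2 fell (DUSP6 and DUSP7), with 20.5% of all genes called, 6.76% higher and 13.8% lower. Without Dex 2 h replicate 2 the count of 5 called at Dex 2 h was 3, and without either CpdA 2 h replicate the count of 7 at CpdA 2 h was 3. The median log2 fold change of the 10 members was −0.14 and −0.40 with Dex and 0.58 and 0.17 with CpdA at the earlier and later time. Over all genes tested it was −0.02, −0.05, −0.02 and −0.04.

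**Figure D2:**
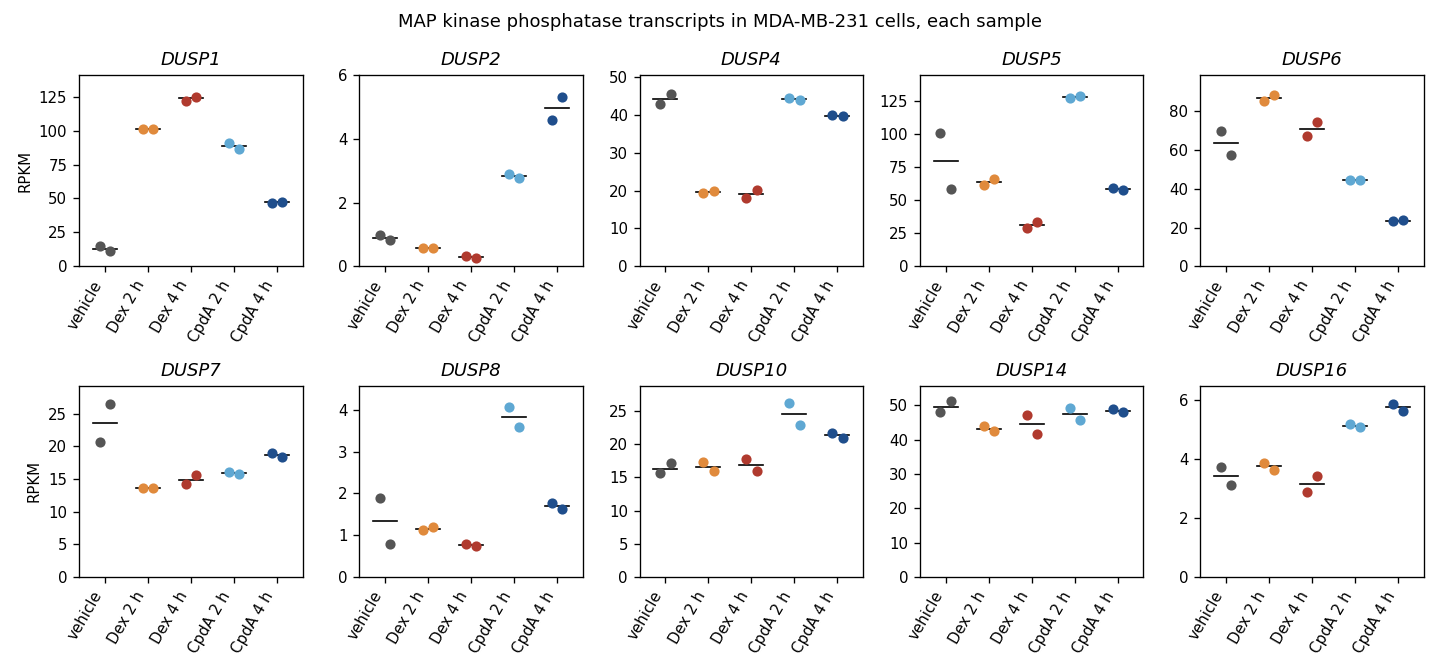
RPKM (y axis, from 0, a scale for each gene) of the 10 genes in each sample by group (x axis); points are the 2 replicates and lines their mean. DUSP1 was above vehicle in all 8 treated samples, DUSP4 was below it in the Dex samples (18.1 to 20.1 RPKM against 43.0 and 45.5), and DUSP6 was below it in the CpdA samples.

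DUSP1 (GRCh37 chr5:172195099-172198198, reverse strand), which inactivates p38, JNK and ERK in the nucleus, was the member with the largest increase with Dex and rose with both ligands. Its levels were 14.6 and 11.6 RPKM with vehicle, 101 and 101 after 2 h of Dex and 122 and 125 after 4 h. With CpdA they were 90.8 and 86.5 after 2 h and 46.8 and 47.4 after 4 h. The 5 groups did not overlap, and every treated sample was above both vehicle samples. The log2 fold change was 2.95 at Dex 2 h (standard error 0.08, adjusted p = 8.1e-08) and 3.24 at Dex 4 h (adjusted p = 2e-08), that is 7.71-fold and 9.44-fold. With CpdA it was 2.76 at 2 h (adjusted p = 4.4e-07) and 1.85 at 4 h (adjusted p = 4.1e-06), that is 6.77-fold and 3.60-fold. These 4 calls held under all 19 alternatives of the processing. In bulk RNA, a lower value from fewer expressing cells and one from less RNA per cell cannot be told apart, which holds for all genes below.

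DUSP1 was also compared directly between the ligands and between the times; whether the gap between the ligands changed with time was not tested. At 2 h the Dex and CpdA samples differed by 0.19 on the log2 scale (95% confidence interval −0.00 to 0.38, adjusted p = 0.22). The difference was called only when the fit left out a vehicle sample, and with it the vehicle spread, or used the 4 samples alone (adjusted p = 0.014). At 4 h DUSP1 was higher with Dex by 1.39 (standard error 0.08, adjusted p = 2.6e-06). With CpdA, DUSP1 fell by 0.91 from 2 h to 4 h (adjusted p = 0.0007). With Dex the difference over the same time was 0.29 (interval 0.10 to 0.48, adjusted p = 0.053). It was called under 7 of the 19 alternatives, among them leaving out either vehicle sample, and with it the vehicle spread.

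DUSP2 (chr2:96808908-96811179, reverse strand), a nuclear phosphatase best known from activated lymphocytes, moved in opposite directions with the ligands. It had 0.973 and 0.823 RPKM with vehicle, 0.581 and 0.564 after 2 h of Dex and 0.328 and 0.275 after 4 h. It had 2.91 and 2.78 RPKM after 2 h of CpdA and 4.60 and 5.32 after 4 h, and the 5 groups did not overlap. It fell by 1.31 on the log2 scale at Dex 4 h (standard error 0.12, adjusted p = 6e-05). It rose by 1.57 at CpdA 2 h (adjusted p = 0.0002) and by 2.34 at CpdA 4 h (adjusted p = 9.6e-06). The lower level at Dex 2 h (−0.57, adjusted p = 0.019) was not called without vehicle replicate 1 (−0.46, adjusted p = 0.081). Nor was it called without Dex 2 h replicate 1 or 2 (adjusted p = 0.09 and 0.1), or with the 4 samples alone (adjusted p = 0.11). Dex and CpdA differed by −2.13 at 2 h and by −3.66 at 4 h, the widest gap between the ligands among the 10 members (adjusted p = 7.4e-08).

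These are changes of a rarely read transcript, and a pseudocount of 1 in place of 0.1 shrank them. They were then −0.27 at Dex 2 h, −0.54 at Dex 4 h, 1.65 at CpdA 4 h and −2.19 between the ligands at 4 h, all still called. From 2 h to 4 h DUSP2 fell by 0.75 with Dex (adjusted p = 0.0054) and rose by 0.78 with CpdA (adjusted p = 0.0065). The Dex difference was not called with the 4 samples alone (adjusted p = 0.1) and shrank to −0.27 with a pseudocount of 1 (adjusted p = 0.041). The CpdA difference was not called without CpdA 2 h replicate 1 or 2 or CpdA 4 h replicate 2 (0.81, 0.75 and 0.68, with adjusted p = 0.057, 0.066 and 0.074).

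**Figure D3:**
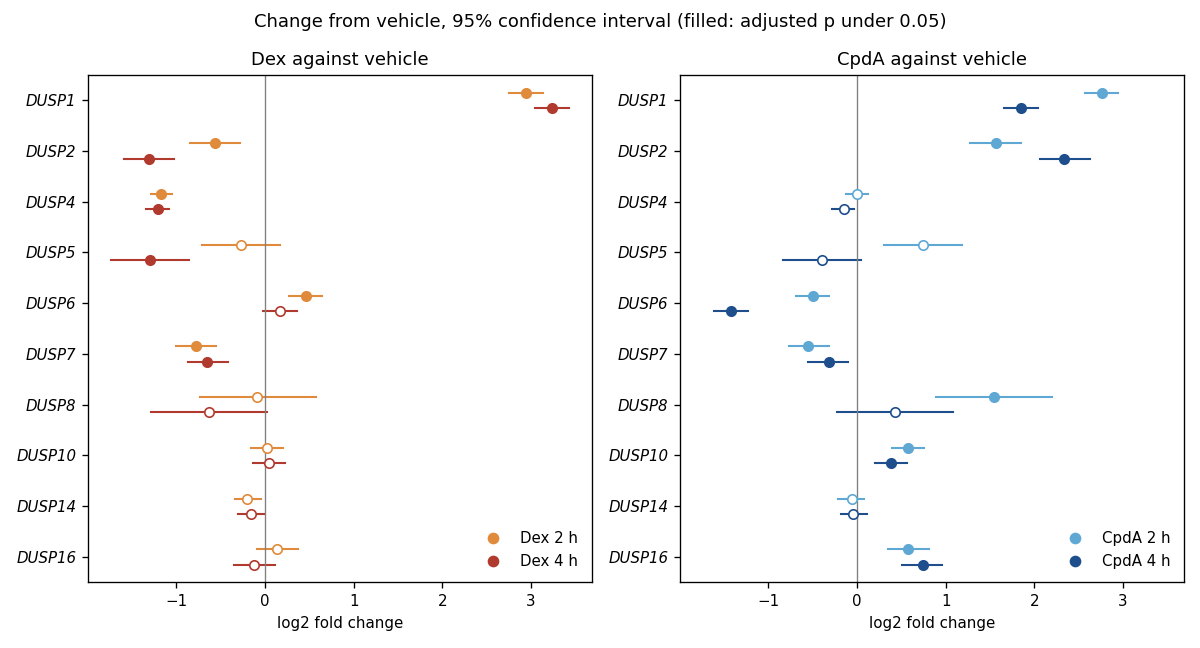
Log2 fold change from vehicle (x axis) of each member (y axis) with Dex (left) and CpdA (right) at 2 h and 4 h; bars are 95% confidence intervals of the limma fit and filled points have an adjusted p under 0.05. DUSP1 lay to the right of 0 with both ligands, whereas DUSP2, DUSP6 and DUSP8 lay on opposite sides of 0 with the 2 ligands. Of these values, DUSP6 at Dex 4 h and DUSP8 with Dex and at CpdA 4 h were not called.

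DUSP4 and DUSP5 are the nuclear members of the ERK feedback. DUSP4 (chr8:29190581-29208201, reverse strand), which acts on ERK and JNK, had 43.0 and 45.5 RPKM with vehicle, 19.4 and 19.8 after 2 h of Dex and 18.1 and 20.1 after 4 h. It had 44.6 and 44.0 RPKM after 2 h of CpdA and 39.9 and 39.6 after 4 h. All 4 Dex samples were below both vehicle samples, and the CpdA 2 h samples lay between the vehicle samples. DUSP4 fell by 1.17 on the log2 scale at Dex 2 h (standard error 0.05, adjusted p = 1e-06) and by 1.21 at Dex 4 h (adjusted p = 4.1e-07), and both calls held under all 19 alternatives. With CpdA the difference from vehicle was 0.00 at 2 h (95% confidence interval −0.12 to 0.12, adjusted p = 0.99). At 4 h it was −0.15 (interval −0.28 to −0.03, adjusted p = 0.076), which was called without Dex 4 h replicate 1 or 2 (adjusted p = 0.016 for each). Dex samples were lower than CpdA samples by 1.17 at 2 h and 1.06 at 4 h (adjusted p = 8.3e-07 and 8.1e-07).

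DUSP5 (chr10:112257665-112271291, forward strand), a nuclear phosphatase specific to ERK, had the vehicle replicates furthest apart after DUSP8, with 100.4 RPKM in replicate 1, named for 2 h, and 58.6 in replicate 2, named for 4 h. It had 61.2 and 65.9 RPKM after 2 h of Dex and 29.1 and 33.4 after 4 h. With CpdA it had 127 and 129 RPKM after 2 h and 59.4 and 57.9 after 4 h. The Dex 4 h samples were below, and the CpdA 2 h samples above, all samples of the other groups. DUSP5 fell by 1.30 on the log2 scale at Dex 4 h (standard error 0.19, adjusted p = 0.001). This call held under all 19 alternatives, with −0.91 without vehicle replicate 1 and −1.69 without vehicle replicate 2. The other differences from vehicle were not called and depended on which vehicle sample served as reference. A fit on 1 vehicle sample takes its spread from the other groups. Their DUSP5 replicates lay within 1.15-fold of each other, against 1.71-fold for vehicle. The p-values of such a fit are too small for this gene, so only its log2 fold changes are given. At Dex 2 h the log2 fold change was −0.27 (adjusted p = 0.5), −0.66 against vehicle replicate 1 alone and 0.12 against replicate 2 alone. At CpdA 2 h it was 0.74 (adjusted p = 0.059), 0.35 against vehicle replicate 1 alone and 1.13 against replicate 2 alone. At CpdA 4 h it was −0.39 (adjusted p = 0.2), −0.77 against replicate 1 alone and 0.00 against replicate 2 alone.

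Comparisons between treated groups did not use vehicle as the reference, but their standard error (0.19) came from all 10 samples, the vehicle samples included. They gave DUSP5 a lower level with Dex than with CpdA, by 1.01 at 2 h (adjusted p = 0.0077) and by 0.91 at 4 h (adjusted p = 0.006). These calls held under 17 and 19 of the 19 alternatives, among them the 4 samples alone. The call at 2 h was lost without Dex 2 h replicate 1 (−0.96, adjusted p = 0.063) and without CpdA 2 h replicate 2 (adjusted p = 0.052). From 2 h to 4 h DUSP5 fell by 1.02 with Dex (adjusted p = 0.0099) and by 1.12 with CpdA (adjusted p = 0.0084), called under 16 and 15 of the 19 alternatives. The Dex call was lost without Dex 2 h replicate 1 (−1.08, adjusted p = 0.056) or 2 (−0.97, 0.071) and without Dex 4 h replicate 1 (−0.92, 0.051). The CpdA call was lost without any of the 4 CpdA samples (−1.14 to −1.11, adjusted p = 0.064 to 0.066). The vehicle sample named for 4 h was likewise below the one named for 2 h, and time and replicate cannot be told apart in these 2 samples.

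DUSP6 and DUSP7 are the cytoplasmic phosphatases of ERK. DUSP6 (chr12:89741012-89746278, reverse strand), the canonical feedback gene of the FGF and ERK pathway, had 69.7 and 57.2 RPKM with vehicle. It had 85.0 and 88.2 RPKM at 2 h of Dex, 67.4 and 74.6 at 4 h of Dex, 44.3 and 44.7 after 2 h of CpdA and 23.3 and 23.8 after 4 h. The CpdA samples were below, and the Dex 2 h samples above, both vehicle samples. It fell by 0.50 on the log2 scale at CpdA 2 h (standard error 0.08, adjusted p = 0.0089) and by 1.42 at CpdA 4 h (adjusted p = 1.5e-05), a 2.67-fold decrease that held under all 19 alternatives. The call at 2 h was lost without CpdA 2 h replicate 1 (−0.50, adjusted p = 0.08) or 2 (−0.51, adjusted p = 0.069). It rose by 0.46 at Dex 2 h (adjusted p = 0.0072), a call lost without Dex 2 h replicate 2 (0.43, adjusted p = 0.06). The difference of 0.17 at Dex 4 h (interval −0.02 to 0.36, adjusted p = 0.18) was called only without vehicle replicate 1 (0.31). DUSP6 was higher with Dex than with CpdA by 0.96 at 2 h (adjusted p = 5.6e-05) and by 1.59 at 4 h (adjusted p = 1e-06). From 2 h to 4 h it fell by 0.91 with CpdA (adjusted p = 0.00069). The difference with Dex was −0.29 (interval −0.48 to −0.10, adjusted p = 0.053). It was called without either vehicle sample, fits that hold none of the vehicle spread, and without Dex 4 h replicate 2 (−0.36).

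DUSP7 (chr3:52082935-52090587, reverse strand) was below vehicle with both ligands. It had 20.7 and 26.5 RPKM with vehicle, 13.6 and 13.7 at 2 h of Dex, 14.2 and 15.7 at 4 h of Dex, 16.1 and 15.8 after 2 h of CpdA and 19.0 and 18.4 after 4 h. All 8 treated samples were below both vehicle samples. It fell by 0.78 on the log2 scale at Dex 2 h (standard error 0.10, adjusted p = 0.00082) and by 0.65 at Dex 4 h (adjusted p = 0.0011), under all 19 alternatives. With CpdA it fell by 0.55 at 2 h (adjusted p = 0.013). This was not called without CpdA 2 h replicate 1 (−0.56, adjusted p = 0.093) or 2 (−0.54, 0.098), without a filter (0.058) or with the 4 samples alone (0.065). The difference of −0.32 at CpdA 4 h (adjusted p = 0.048) was not called under 12 of 19 alternatives. It was −0.15 without vehicle replicate 2 (adjusted p = 0.17), and the adjusted p was 0.074 to 0.2 on leaving out a library of Dex 2 h, CpdA 2 h or CpdA 4 h.

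DUSP8, DUSP10 and DUSP16, the phosphatases of JNK and p38, were called with CpdA and not with Dex. DUSP8 (chr11:1575281-1593501, reverse strand), expressed mainly in brain and heart, had vehicle levels of 1.90 and 0.801 RPKM, the widest ratio between vehicle replicates of any member (2.37). It had 1.13 and 1.20 RPKM at 2 h of Dex, 0.788 and 0.744 at 4 h of Dex, 4.07 and 3.58 after 2 h of CpdA and 1.78 and 1.63 after 4 h. Only the CpdA 2 h samples stood clear of both vehicle samples on the upper side, and the Dex 4 h samples lay below both. Its rise at CpdA 2 h was 1.55 on the log2 scale (standard error 0.29, adjusted p = 0.016), with 0.97 without vehicle replicate 2 and 2.12 without vehicle replicate 1. It was not called without CpdA 2 h replicate 1 (1.46, adjusted p = 0.13) or 2 (1.64, 0.082), without a filter (0.072) or with the 4 samples alone (0.082). At Dex 2 h the difference was −0.09 (adjusted p = 0.92), which was −0.66 without vehicle replicate 2 (adjusted p = 0.014) and 0.49 without vehicle replicate 1 (adjusted p = 0.044). At Dex 4 h it was −0.63 (adjusted p = 0.14), called without vehicle replicate 2 (−1.21, adjusted p = 0.00028). At CpdA 4 h it was 0.43 (adjusted p = 0.35), called without vehicle replicate 1 (1.00, adjusted p = 0.0022).

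Against each other, the CpdA samples had more DUSP8 than the Dex samples at 2 h, where the difference was −1.63 on the log2 scale (adjusted p = 0.0049), under all 18 alternatives that tested it. At 4 h the difference was −1.06 (adjusted p = 0.02), and −0.61 with a pseudocount of 1 (adjusted p = 0.024). This call was lost without Dex 4 h replicate 1 or 2 (adjusted p = 0.055 and 0.059), without CpdA 4 h replicate 1 or 2 (0.1 and 0.072) and without a filter (0.07). DUSP8 fell by 1.12 from CpdA 2 h to CpdA 4 h (adjusted p = 0.037). The call was lost under 8 of 18 alternatives (adjusted p = 0.062 to 0.2), among them leaving out any of the 4 CpdA samples (−1.21 to −1.03) or either Dex 2 h sample. DUSP8 with Dex from 2 h to 4 h differed by −0.55 (adjusted p = 0.25). It was called only without vehicle replicate 1 or 2, fits that hold none of the vehicle spread.

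DUSP10 (chr1:221874766-221915431, reverse strand) had 15.6 and 17.1 RPKM with vehicle, 17.3 and 15.9 at 2 h of Dex, 17.7 and 16.0 at 4 h of Dex, 26.1 and 22.8 after 2 h of CpdA and 21.7 and 20.9 after 4 h. The CpdA samples were above all others and the Dex samples overlapped with vehicle. It rose by 0.58 at CpdA 2 h (standard error 0.08, adjusted p = 0.0036) and by 0.38 at CpdA 4 h (adjusted p = 0.01). The latter was lost without vehicle replicate 1 (0.31, adjusted p = 0.066) and without CpdA 4 h replicate 1 (0.35, adjusted p = 0.079). With Dex the differences were 0.02 at 2 h (95% confidence interval −0.16 to 0.20) and 0.04 at 4 h (interval −0.14 to 0.23). DUSP16 (chr12:12626216-12715797, reverse strand) had 3.73 and 3.13 RPKM with vehicle, 3.89 and 3.65 at 2 h of Dex, 2.88 and 3.42 at 4 h of Dex, 5.20 and 5.09 after 2 h of CpdA and 5.87 and 5.64 after 4 h. Again the CpdA samples were above all others, and the Dex samples overlapped with vehicle. DUSP16 rose by 0.74 at CpdA 4 h (standard error 0.10, adjusted p = 0.0012) under all 19 alternatives. Its rise of 0.58 at CpdA 2 h (adjusted p = 0.012) was lost without vehicle replicate 2 (0.45, adjusted p = 0.074) and without CpdA 2 h replicate 1 (0.56, 0.1) or 2 (0.59, 0.081).

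DUSP14 (chr17:35849997-35873603, forward strand), the atypical member, had the narrowest range of the 10, with the means of its groups within 1.15-fold of each other. It had 48.1 and 51.1 RPKM with vehicle, 44.0 and 42.4 at 2 h of Dex, 47.2 and 41.7 at 4 h of Dex, 49.3 and 45.7 after 2 h of CpdA and 48.8 and 47.9 after 4 h. Every group overlapped with its neighbour in the order of levels, but all 4 Dex samples lay below both vehicle samples. No comparison called it. The 95% confidence intervals of its log2 fold change from vehicle ran from −0.34 to −0.05 at Dex 2 h, −0.31 to −0.01 at Dex 4 h, −0.21 to 0.08 at CpdA 2 h and −0.18 to 0.11 at CpdA 4 h. The Dex differences were called under quantile normalization (−0.21 and −0.18, adjusted p = 0.04 and 0.039). Without Dex 4 h replicate 1 they were −0.20 at 2 h and −0.25 at 4 h (adjusted p = 0.027 and 0.015). That at 2 h was also called without Dex 4 h replicate 2 (0.028). The difference between the ligands at 4 h became −0.21 without Dex 4 h replicate 1 (adjusted p = 0.023).

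**Figure D4:**
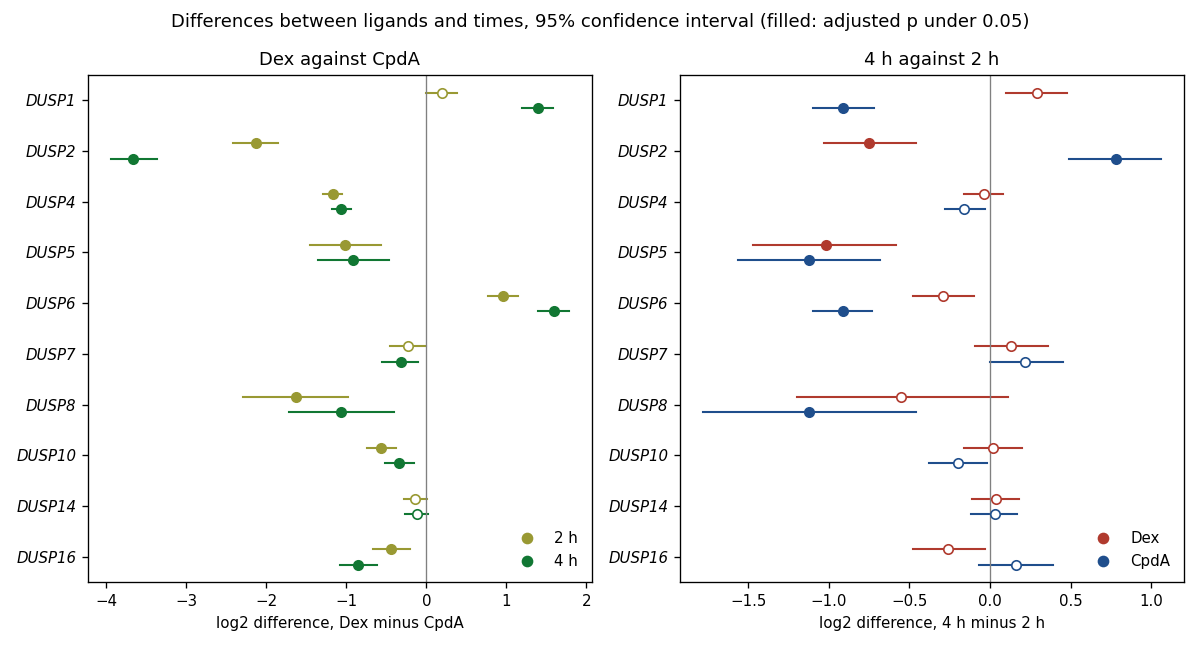
Log2 difference (x axis) of each member (y axis) between Dex and CpdA at the same time (left, Dex minus CpdA) and between 4 h and 2 h of the same ligand (right); bars are 95% confidence intervals and filled points have an adjusted p under 0.05. DUSP1 and DUSP6 were the members higher with Dex at 4 h (1.39 and 1.59), and DUSP2 was the lowest with Dex relative to CpdA (−3.66).

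Compared directly, without the vehicle samples as reference, 1 of 10 members was higher with Dex than with CpdA at 2 h (DUSP6) and 6 were lower (DUSP2, DUSP4, DUSP5, DUSP8, DUSP10 and DUSP16). Of all genes 13.7% were called, 7.53% higher and 6.18% lower. At 4 h, 2 were higher (DUSP1 and DUSP6) and 7 were lower (the 6 named for 2 h and DUSP7), with 33.4% of all genes called, 15.4% higher and 18.0% lower. The smaller of these differences were in DUSP10, with −0.56 at 2 h and −0.34 at 4 h, DUSP16, with −0.44 and −0.85, and DUSP7, with −0.23 (not called) and −0.32. DUSP16 at 2 h (adjusted p = 0.019) was lost without Dex 2 h replicate 1 (−0.48, adjusted p = 0.069) or 2 (−0.39, 0.13), without CpdA 2 h replicate 1 (−0.42, 0.12) or 2 (−0.45, 0.093) and without a filter (0.058). DUSP10 at 4 h (adjusted p = 0.011) was lost without CpdA 4 h replicate 1 (−0.31, adjusted p = 0.073). DUSP7 at 4 h (adjusted p = 0.033) was lost under 9 of 19 alternatives (adjusted p = 0.051 to 0.14). These included leaving out either sample of Dex 2 h, CpdA 2 h or CpdA 4 h (−0.34 to −0.30) or Dex 4 h replicate 1 (−0.25). DUSP7 at 2 h was called without either vehicle sample, and so without the vehicle spread, and with the 4 samples alone (adjusted p = 0.0053).

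Over time, the same fit found 0 members higher and 2 lower at Dex 4 h than at Dex 2 h (DUSP2 and DUSP5), and 1 and 4 at an unadjusted p under 0.05. Of all genes 13.6% were called, 4.55% higher and 9.02% lower. At CpdA 4 h, 1 member was higher than at CpdA 2 h (DUSP2) and 4 were lower (DUSP1, DUSP5, DUSP6 and DUSP8), with 12.4% of all genes called, 5.21% higher and 7.20% lower. DUSP16 with Dex (−0.26) was called only without Dex 4 h replicate 2 (−0.38, adjusted p = 0.03). DUSP4 with CpdA (−0.16) was called without Dex 4 h replicate 1 or 2. DUSP7 with CpdA (0.22) was called without either vehicle sample, and so without the vehicle spread. The counts in the comparisons of times moved with single libraries. With Dex they ran from 1 (without Dex 2 h replicate 1 or 2, or Dex 4 h replicate 1) to 5 (without either vehicle sample). With CpdA they ran from 2 (without CpdA 2 h replicate 1 or 2, or CpdA 4 h replicate 2) to 6.

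Among 20 other genes known to be transcribed in response to ERK or to restrain its pathway, all 20 were tested. At Dex 2 h, 2 rose and 11 fell, when 4.49% of all genes rose and 5.82% fell, with a median log2 fold change of −0.40 beside −0.02 over all genes. At Dex 4 h, 2 rose and 14 fell, when 9.26% of all genes rose and 18.2% fell, with a median of −0.60 beside −0.05. At CpdA 2 h, 4 rose and 3 fell, beside 1.89% and 4.29% of all genes (median 0.05 beside −0.02). At CpdA 4 h, 3 rose and 8 fell, beside 6.76% and 13.8% of all genes (median −0.25 beside −0.04). The count of called genes of this list ranged from 8 (with the 4 samples alone) to 14 over the alternatives at Dex 2 h and from 13 to 16 at Dex 4 h. It ranged from 5 (without a filter) to 11 (without vehicle replicate 1) at CpdA 2 h, and from 7 (without CpdA 4 h replicate 1) to 14 at CpdA 4 h.

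**Figure D5:**
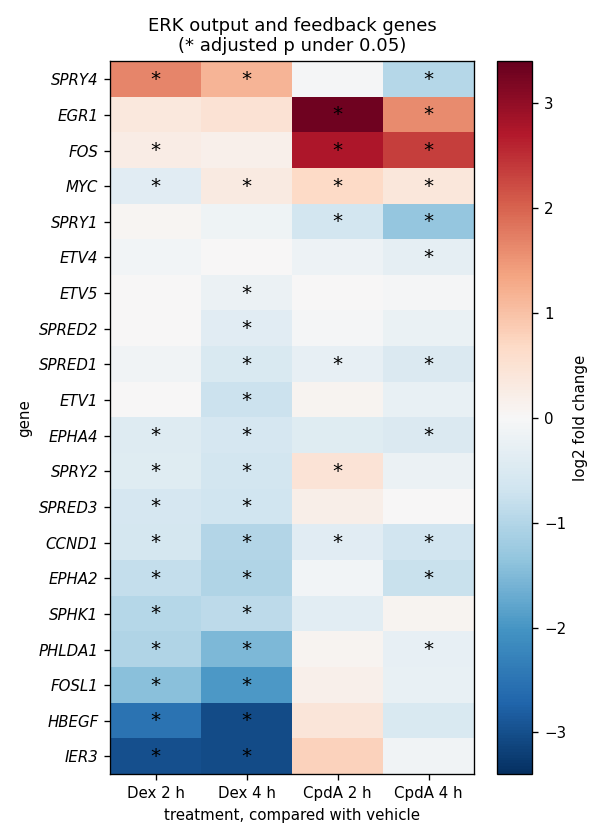
Log2 fold change from vehicle (colour) of 20 ERK output and feedback genes (rows, ordered by their mean with Dex) in the 4 treatments (columns); asterisks mark an adjusted p under 0.05. The lower rows (IER3, HBEGF, FOSL1) are blue with Dex, to −3.05 for IER3 at Dex 4 h, and EGR1 and FOS are red with CpdA, to 3.32 for EGR1 at CpdA 2 h.

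The largest rise with Dex in this list was in SPRY4, a Sprouty inhibitor of receptor signaling to ERK. SPRY4 had 40.3 and 29.6 RPKM with vehicle, 102 and 116 at 2 h of Dex, 69.7 and 84.5 at 4 h of Dex, 31.8 and 34.8 after 2 h of CpdA and 17.2 and 17.8 after 4 h. As with DUSP6, the Dex 2 h samples were above and the CpdA 4 h samples below both vehicle samples. The log2 fold changes were 1.65 at Dex 2 h (adjusted p = 5.6e-05), 1.15 at Dex 4 h (adjusted p = 0.00028) and −0.98 at CpdA 4 h (adjusted p = 0.0014). SPRY1, its paralog, had the largest fall with CpdA, by 0.63 at 2 h (adjusted p = 0.0019) and by 1.31 at 4 h (adjusted p = 1.5e-05). The largest fall with Dex was in IER3, an early response gene that prolongs ERK activity, by 3.00 at 2 h and 3.05 at 4 h, from vehicle levels of 116 and 62.9 RPKM. EGR1 and FOS, immediate early transcription factors, had the largest rises with CpdA, EGR1 by 3.32 at 2 h and FOS by 2.36 at 4 h. As with DUSP5 and DUSP8, vehicle replicate 1 was above vehicle replicate 2 at IER3, at SPRY4 and at EGR1 (6.84 and 3.12 RPKM).

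Of 12 MAP kinase genes, the targets of the phosphatases, 11 were tested. The model called 0 at Dex 2 h and 0 at CpdA 2 h, with 3 and 1 at an unadjusted p under 0.05 and at most 1 called under any alternative. Over all genes the share called was 10.3% and 6.18%. At Dex 4 h, when 27.4% of all genes were called, 1 rose (MAPK7, by 0.23) and 4 fell, the most in MAPK13 (−0.37). The count of 5 called was 1 with the 4 samples alone. At CpdA 4 h 2 of 11 were called, both lower, a share near the 20.5% of all genes called, and the larger fall was in MAPK14, which encodes p38α (−0.36, adjusted p = 0.0013). The median of the 11 genes was −0.08 and −0.00 with Dex and −0.06 and −0.09 with CpdA at 2 h and 4 h. Of 7 MAP kinase kinase genes 6 were tested. With Dex, 1 of 6 fell at 2 h, when 5.82% of all genes fell. At Dex 4 h 2 rose and 1 fell, when 9.26% of all genes rose and 18.2% fell. This count of 3 called was 1 with the 4 samples alone. With CpdA, 0 were called at 2 h (3 at an unadjusted p under 0.05), beside 6.18% of all genes. At CpdA 4 h 1 of 6 fell, a share near the 13.8% of all genes that fell. MAP2K3, an activator of p38, fell from 72.9 and 77.2 RPKM with vehicle to 35.4 and 36.4 after 2 h of Dex and 28.3 and 26.2 after 4 h. On the log2 scale it fell by 1.06 and fell by 1.46 (adjusted p = 9.2e-07 and 6.8e-08), under all 19 alternatives. With CpdA, MAP2K3 had 70.1 and 68.4 RPKM at 2 h and 70.6 and 70.0 at 4 h (adjusted p = 0.21 at each time). MAP2K2 rose at Dex 4 h by 0.24 (adjusted p = 0.016) and MAP2K7 fell at CpdA 4 h by 0.15 (adjusted p = 0.043), the first not called under 3 and the second not under 11 of 19 alternatives.

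The gene whose pattern was most like that of DUSP1 was DDIT4, a glucocorticoid- and stress-induced inhibitor of mTORC1, with a root mean square difference of 0.33 between the mean-centred log2 values over the 10 samples. DDIT4 had mean levels of 51.5 RPKM with vehicle, 363 and 332 at Dex 2 h and 4 h, and 188 and 125 at CpdA 2 h and 4 h. CEBPD (0.60), MIR423 (0.62, listed near 0 with vehicle), DMBT1 (0.63) and AKAP12 (0.63) followed. The genes closest to DUSP6 were TNS4 (0.17, with low group means of 0.203 to 1.05 RPKM), SPRY1 (0.19), FOXA2 (0.23), TLR4 (0.25) and TRIM56 (0.25). SPRY1 had mean levels of 4.58 RPKM with vehicle, 4.80 and 4.11 with Dex, and 2.93 and 1.78 with CpdA at 2 h and 4 h.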

How the data were processed

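RNA-seq of 10 MDA-MB-231 samples, 5 groups of 2, was analysed from 1 table per sample; the 12 ChIP samples were not analysed here. The authors aligned the reads with TopHat 2.0.13 and deposited RPKM values per gene symbol from Partek Genomics Suite 6.6; hg19 is a build named in the submitters' processing notes, and how transcripts were combined into symbols is not given in the sources used here. Counting was not stated to use strand, so reads from a member and an overlapping antisense gene cannot be told apart.

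The values were fitted as log2(RPKM + 0.1), after a filter of 0.5 RPKM in at least 2 samples, with limma 3.58.1 (R 4.3.3, eBayes with an abundance trend), with 1 model of 5 groups and 8 contrasts; this scale understates changes of low genes. Benjamini-Hochberg adjustment covered all 12713 genes, and the code was tested on simulated data. The 4 comparisons with vehicle share the vehicle samples. p-values measure only the spread between samples, which the labels do not trace to separate cultures; with 2 samples against 2 no exact permutation p can reach 0.05. The members and gene lists were chosen with earlier results of these data known. Named were all 10 members; from each list and comparison with vehicle, the gene with the largest called rise and fall whose treated replicates both lay on 1 side of both vehicle replicates; and the 5 genes closest in pattern to DUSP1 and to DUSP6 by root mean square difference over all samples; HBEGF and FOSL1 in a caption were named after their values were seen. Alternatives were pseudocounts of 0.01 and 1, no filter, a filter of 1 RPKM in all samples, quantile normalization, median scaling, no trend, the 4 samples of a comparison alone, a replicate block and each library left out. Where a library was left out, the lone sample of its group was assumed to vary like the other groups. For DUSP1, DUSP5, DUSP6, DUSP7 and DUSP8 the vehicle replicates were further apart than those of any treated group. Fits without a vehicle sample therefore understate the spread of these genes, and calls gained there are weak. Promoter sequences are from RefSeq (GRCh38.p14), gene positions from GENCODE lifted to GRCh37.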

Additional observations from a re-analysis of the deposited data

Results flagged for a closer look

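For 7 values of the MAP kinase phosphatases, the level with a ligand differed between 2 h and 4 h (limma, adjusted over all genes). This contrast compares the treated samples of both times and does not subtract a vehicle sample of each time. With Dex these were DUSP2 (−0.75 on the log2 scale, adjusted p = 0.0054, both 4 h samples below both 2 h samples) and DUSP5 (−1.02, adjusted p = 0.0099, likewise). With CpdA they were DUSP1 (−0.91, adjusted p = 0.0007), DUSP5 (−1.12, adjusted p = 0.0084), DUSP6 (−0.91, adjusted p = 0.00069) and DUSP8 (−1.12, adjusted p = 0.037), each with both 4 h samples below both 2 h samples, and DUSP2 (0.78, adjusted p = 0.0065), with both above. With 2 samples a group, no group was tested for a single sample that stands apart. Against only the vehicle sample that the headers name for the same time, the log2 fold changes at 2 h and 4 h were 0.97 and 1.00 for DUSP8 with CpdA, −0.66 and −0.91 for DUSP5 with Dex, and 0.35 and 0.00 for DUSP5 with CpdA. In the same way they were 2.60 and 2.01 for DUSP1 with CpdA, −0.65 and −1.28 for DUSP6 with CpdA, −0.67 and −1.20 for DUSP2 with Dex, and 1.46 and 2.45 for DUSP2 with CpdA. The difference of these values between the times was not tested.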

How the results depend on the processing

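Over 19 alternatives, 1504 recomputed values of the 10 members in the 8 comparisons gave 1387 with the call unchanged, 73 calls lost, 43 gained and 1 uncalled value of the opposite sign that became called. Of the 1387, 15 had the opposite sign, none of them called and values that round to 0.00 not counted, among them DUSP5 at Dex 2 h (0.12 without vehicle replicate 1) and DUSP8 at CpdA 4 h (−0.15 without vehicle replicate 2). The value called with the opposite sign was DUSP8 at Dex 2 h, 0.49 without vehicle replicate 1 and −0.66 without vehicle replicate 2. Each of these fits left 1 vehicle sample and so held none of the vehicle spread of DUSP8. The number of members called ranged, on leaving out single libraries, from 3 to 7 at Dex 2 h, 5 to 6 at Dex 4 h, 3 to 8 at CpdA 2 h, 4 to 7 at CpdA 4 h, 5 to 9 and 6 to 9 between the ligands at 2 h and 4 h, 1 to 5 between the times with Dex, and 2 to 6 with CpdA. Between the times with CpdA it was also 3 under the filter of 1 RPKM, which left 8 members (DUSP2 and DUSP8 were not tested), and 8 with the 4 samples alone. With a replicate block in the model, the counts were 5, 5, 7 and 6 against vehicle, 7 and 9 between the ligands and 3 and 5 between the times (2 and 5 without it), and 1 of 80 calls was gained, DUSP1 between the times with Dex (adjusted p = 0.047, limma). Over the 10 pairs of same-numbered samples the correlation of their deviations from the group means was −0.057 to 0.198 and over 0.1 in 3. The main model took the samples to share only a number, which these correlations cannot settle. Quantile normalization and median scaling changed the log2 fold changes of a comparison by a median over all genes of at most 0.07. Read totals are unknown, so no counting error could be given.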

Other observations

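Of 14 other dual-specificity phosphatase genes, 7 passed the filter on low values, without DUSP9 (at most 0.0598 RPKM). limma called 0 of them at Dex 2 h and 0 at CpdA 2 h, with 1 and 0 at an unadjusted p under 0.05 and 0 called under each of the 19 alternatives. Over all genes the share called was 10.3% and 6.18%. At Dex 4 h 1 of the 7 rose and 1 fell, a share near the 27.4% of all genes called. DUSP22 rose by 0.37 on the log2 scale (adjusted p = 0.00034). DUSP3, which encodes VHR, a phosphatase of ERK and JNK, fell by 0.18 (adjusted p = 0.012), a call lost under 3 of 19 alternatives. At CpdA 4 h 1 of the 7 was called, when 20.5% of all genes were. It was DUSP11, a phosphatase of RNA, which fell by 0.16 (adjusted p = 0.044), a call lost under 12 of 19 alternatives.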
